A study of Mus musculus with 96 samples.

Results

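Expression of 9 genes of mitophagy and autophagy was followed through 4 sort gates of fetal erythroid progenitors: Bnip3l, Bnip3, Ulk1, Atg7, Atg5, Map1lc3b, Gabarapl1, Gabarapl2 and Sqstm1. They were taken as the rows of the count table that carry these symbols, and all 9 were found among 49466 genes. The table held Smart-seq2 read counts (full-length cDNA libraries from single cells) for 96 wells of 1 plate, with 1 cell sorted into each well. The cells came from livers of C57/Bl6J mouse embryos at embryonic day 14.5, with no genotype or treatment given, after removal of cells that carried lineage antigens including Ter119, Sca-1, CD16/32 and CD41, and were sorted by Kit, CD71 and CD24. The gates held 24 wells each: BFUE (burst-forming units, the earlier progenitor), an intermediate named for 25 to 35% and one for 50 to 60% of CD71/CD24 expression (here the lower and the upper intermediate), and CFUE (colony-forming units, the later progenitor). No animal or pool is named in the labels, so a gate was treated as 1 sample, and differences between gates rest on cells and not on replicates. Each gate filled its own plate columns, so gate and plate column cannot be told apart.

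Autophagy encloses cell contents in a double membrane and delivers them to the lysosome, and mitophagy is its selective form for mitochondria. ULK1 kinase starts the process, ATG7 and ATG5 belong to the enzyme system that attaches ATG8 proteins (LC3B, GABARAPL1 and GABARAPL2 here) to the growing membrane, and receptors such as BNIP3L, BNIP3 and p62, the product of Sqstm1, bind cargo on one side and ATG8 proteins on the other. Red cells lose all their mitochondria as reticulocytes mature, and BNIP3L, also called NIX, is the receptor known to be required for it. The wells studied here hold cells from before that step.

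Of the 96 wells, 91 were kept with 50000 or more reads (23 BFUE, 21 lower intermediate, 24 upper intermediate and 23 CFUE), at 947458 to 3785903 reads and a median of 9363 genes. Of the 23 BFUE wells, 8 held Cd34, a gene of early blood progenitors, at 1036 to 2202 CPM (counts per 1000000 reads in genes), and the other 15 held at most 5.16 CPM. The wells called Cd34-high and Cd34-low BFUE below were divided at 100 CPM. The summed CPM of 8 late erythroblast markers (Slc4a1, Hba-a1 and others) had a median of 102 in Cd34-low BFUE (13.8 to 156), 87.09 in the lower intermediate (13.4 to 188), 213 in the upper intermediate (68.2 to 1629) and 1206 in CFUE (107 to 6403). Between Cd34-low BFUE and CFUE, 7 of the 8 were 1.5-fold or more higher in CFUE and 1, Xpo7, was lower (37.4 and 18.9 CPM in summed reads). The largest parts of the sum were Xpo7 and Slc25a37 (35.4 CPM) in Cd34-low BFUE and Hba-a1 (934 CPM) in CFUE. In Cd34-low BFUE Hba-a1 was at 7.63 CPM and Slc4a1 at 0.191. The wells were therefore sorted progenitors in which genes of maturing erythroblasts were only partly present, and the name erythroblast is not used for them. In Cd34-high wells the 13 erythroid markers summed to a median of 183 CPM, against 1683 in Cd34-low BFUE. One CFUE well (plate position D10) stood apart, with Gata1, the erythroid master regulator, at 3.17 CPM against 265 to 771 in the other 22 CFUE wells. Klf1 was at 239 CPM in it, against 686 to 1437. It did hold late markers, with Hba-a1 at 1697 CPM (18.8 to 3076 in the others) and Slc4a1 at 137 CPM (0 to 632). Mitochondrial genes made up 5.14% of its reads, against 1.10 to 4.21%. The 4.21% was in well A10, which had 7422 genes, the fewest of the 22. Results that involve CFUE are given with D10, and some of them also without D10.

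Promoter sequences are shown for Atg5 and Atg7, the members lower in Cd34-high wells, and for Bnip3, because these 3 hold the palindrome CACGTG. Each run is the 250 bases before the RefSeq start on GRCm38.p6, read 5′ to 3′ on the gene's strand: Atg5 at chr10:44268089-44268338 (plus strand), Atg7 at chr6:114670846-114671095 (plus strand, within the GENCODE span of the gene) and Bnip3 at chr7:138909507-138909756 (minus strand). Capitals mark CACGTG, which holds ACGTG on both strands.
Atg5: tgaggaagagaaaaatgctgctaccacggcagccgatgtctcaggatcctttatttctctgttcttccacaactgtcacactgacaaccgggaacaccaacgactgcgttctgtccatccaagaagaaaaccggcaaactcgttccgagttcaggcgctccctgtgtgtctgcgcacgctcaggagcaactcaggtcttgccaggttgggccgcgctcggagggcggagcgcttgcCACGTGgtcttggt
Atg7: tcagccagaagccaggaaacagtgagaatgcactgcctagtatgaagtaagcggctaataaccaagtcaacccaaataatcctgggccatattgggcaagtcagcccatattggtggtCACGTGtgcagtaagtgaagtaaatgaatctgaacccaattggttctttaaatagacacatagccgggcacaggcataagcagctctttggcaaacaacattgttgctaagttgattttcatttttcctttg
Bnip3: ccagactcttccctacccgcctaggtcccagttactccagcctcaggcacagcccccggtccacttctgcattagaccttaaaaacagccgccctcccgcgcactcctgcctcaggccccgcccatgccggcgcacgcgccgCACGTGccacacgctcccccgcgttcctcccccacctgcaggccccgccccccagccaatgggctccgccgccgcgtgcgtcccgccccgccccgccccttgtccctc
CACGTG, the E-box letters, stood at bases -14 to -9 from the start in Atg5, -132 to -127 in Atg7 and -108 to -103 in Bnip3. In windows of 250 bases before to 50 bases after the start, on either strand, 3 of the 8 member promoters in the RefSeq table held CACGTG, against 7.15% of 32851 promoters. The longer GTCACGTG, the core of the element bound by the lysosome and autophagy regulator TFEB, contains CACGTG and stood in Atg7 alone, against 2.25% of all promoters. The Atg7 window, with this match and its CACGTG, lies inside the gene, downstream of its GENCODE start at 114643097. ACGTG, the core shared with the element bound by hypoxia-inducible factors, was in those 3 and in Gabarapl2, against 19.6% of all. GATAA, the core of the GATA factor site, was in 0 of the 8, against 25.4%. Bnip3l had no entry among these promoters, so no motif was looked for in it. These are matches of letters and not measured sites.

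The 2 mitophagy receptors, both outer-membrane proteins of mitochondria, are 70.1% identical over 505 aligned coding bases. Bnip3l (chromosome 14, 66985239 to 67008877, minus strand, GRCm38) was read in every kept well. Summed over wells, it stood at 109 CPM in Cd34-high BFUE, 125 in Cd34-low BFUE, 151 in the lower intermediate, 140 in the upper intermediate and 195 in CFUE. Single wells ran from 28.7 to 202 CPM (median 113) in Cd34-high BFUE, from 53.1 to 212 (median 134) in Cd34-low BFUE, from 71.4 to 301 (median 122) in the lower intermediate, from 65.99 to 235 (median 139.7) in the upper intermediate and from 42.2 to 345 (median 204) in CFUE. CFUE wells were the highest as a group, with 18 of 23 above the Cd34-low median and 10 above every Cd34-low well, and the ranges overlapped. The lowest CFUE value was that of well D10.

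Between CFUE and Cd34-low BFUE, Bnip3l was 1.55-fold higher in CFUE (interval 1.49 to 1.62). All intervals given here are exact 95% intervals that cover counting error only, and reads without molecular identifiers are not independent molecules. The difference was 1.59-fold without well D10, 1.65-fold in plate rows A to D and 1.47-fold within rows E to H. The mean of per-well CPM put it at 1.46-fold, under the 1.5-fold threshold used for all genes. Most of the distance lay at the last gate, since CFUE stood 1.40-fold above the upper intermediate (1.347 to 1.45), while the upper intermediate stood at 0.924 of the lower one (0.888 to 0.961) and the lower one 1.20-fold above Cd34-low BFUE (1.15 to 1.26).

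Bnip3 (chromosome 7, 138890836 to 138909519, minus strand), a receptor known for its induction by low oxygen, was at 19.96, 25.7, 31.4, 30.04 and 31.9 CPM in the same order of groups. Its wells were uneven: 0 to 99.0 CPM (median 2.48) in Cd34-high BFUE, 0 to 69.0 (median 21.8) in Cd34-low BFUE, 0 to 135 (median 26.1) in the lower intermediate, 1.25 to 64.1 (median 24.9) in the upper intermediate and 0.581 to 111 (median 30.1) in CFUE. A single well held 57.7% of the Cd34-high reads, and D10, low in Bnip3l, was the highest CFUE well for Bnip3. CFUE stood 1.24-fold above Cd34-low BFUE (1.13 to 1.37) over all wells, but 2.45-fold above it in plate rows A to D, the upper rows, and at 0.704 of it in the lower rows E to H. No direction for Bnip3 therefore held in the upper and the lower rows alike.

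**Figure D1:**
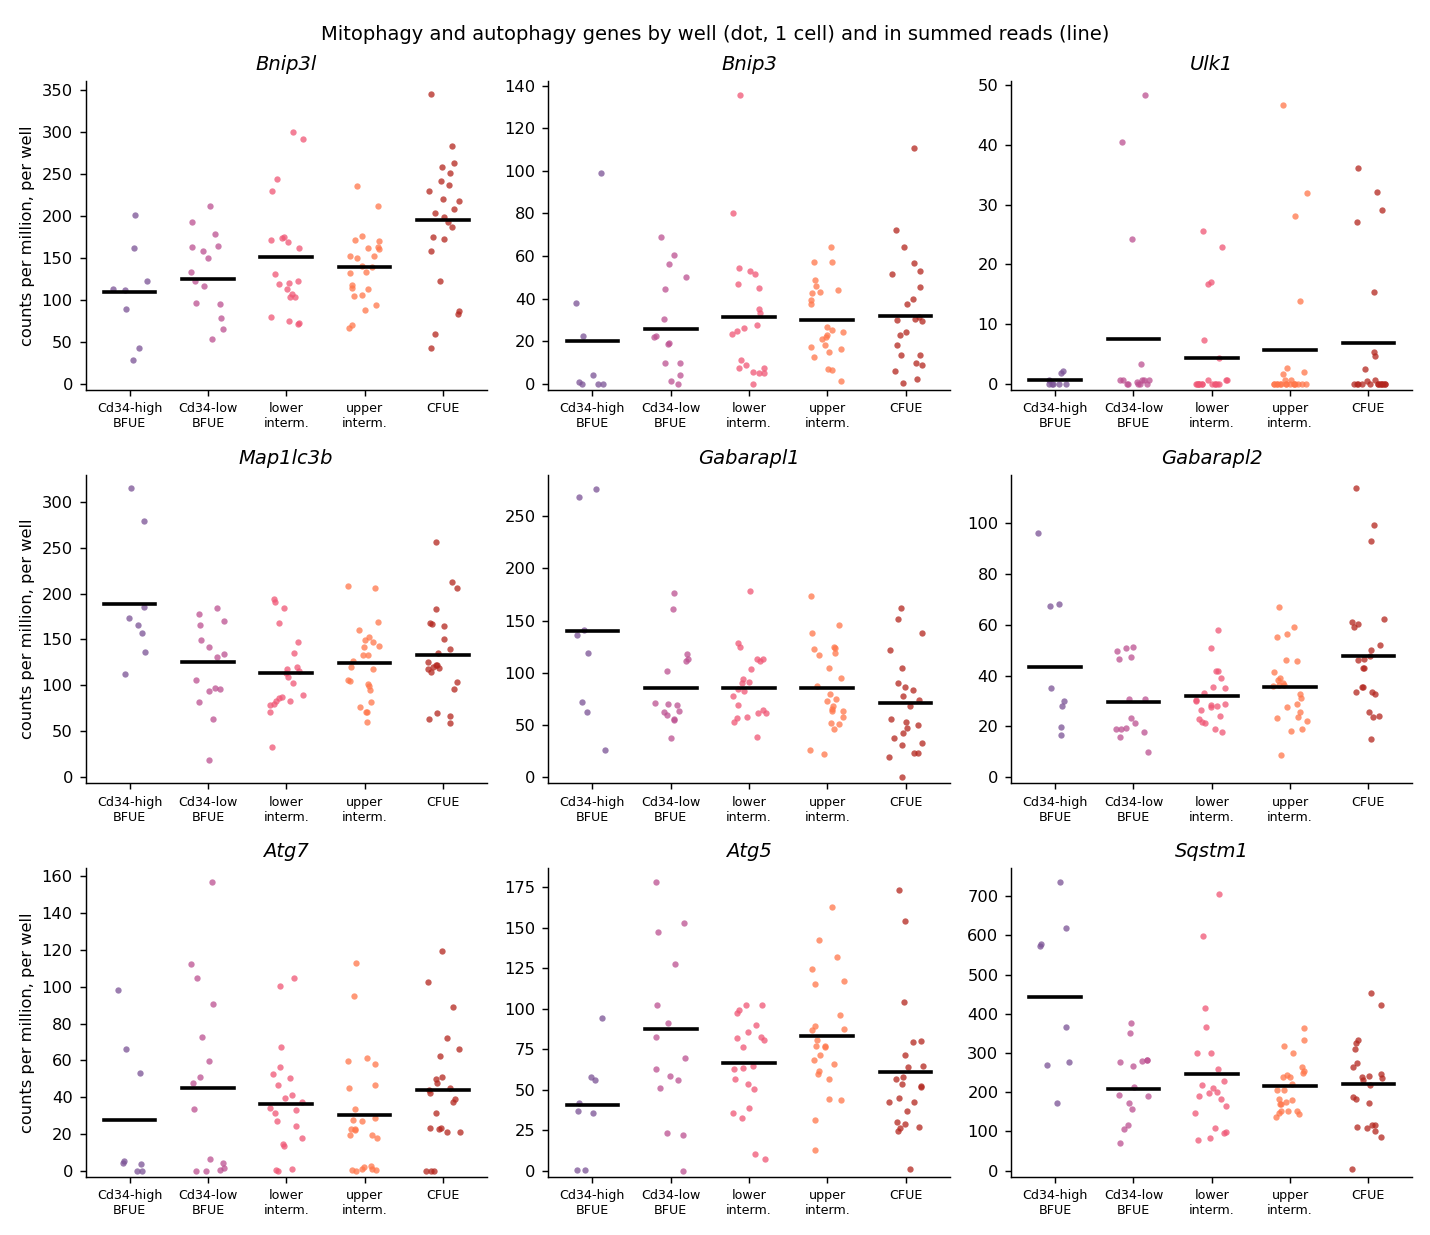
CPM (vertical axis, from 0) of the 9 genes in each of the 91 kept wells (dots, 1 cell each) by group, with the CPM of summed reads as a black line. Bnip3l has its highest line in CFUE at 195 CPM and Sqstm1 its highest in Cd34-high BFUE at 443 CPM, while the dots of the groups overlap in all 9 panels.

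Ulk1 (chromosome 5, 110784488 to 110810097, minus strand) was the member with fewest reads, 784 in all kept wells. It stood at 0.585 CPM in Cd34-high BFUE, 7.48 in Cd34-low BFUE, 4.31 in the lower intermediate, 5.66 in the upper intermediate and 6.80 in CFUE, below the 10 CPM at which a gene counts as measured here. In each group the median well held less than 1 CPM, and 10 or more reads were found in 0 of 8 Cd34-high BFUE wells, 3 of 15 Cd34-low BFUE wells, 5 of 21 lower intermediate, 4 of 24 upper intermediate and 5 of 23 CFUE wells. The highest well of each group, at 2.15, 48.3, 25.6, 46.7 and 36.1 CPM, shows that the reads were gathered in few cells, and no difference for Ulk1 is drawn from them.

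The conjugation enzymes were Atg7, the E1-like enzyme that activates ATG8 proteins and ATG12, and Atg5, the protein to which ATG12 is joined. Atg7 (chromosome 6, 114643097 to 114860614, plus strand) was at 27.7, 44.8, 36.4, 30.5 and 44.1 CPM from Cd34-high BFUE to CFUE. Its wells ran from 0 to 98.1 CPM (median 4.67), 0 to 157 (median 47.4), 0 to 105 (median 33.9), 0 to 113 (median 22.8) and 0 to 119 (median 42.5) in that order. Every group held wells without an Atg7 read, and 5 of 8 Cd34-high wells had fewer than 10 reads. CFUE and Cd34-low BFUE differed by less than counting error over all wells (ratio 0.986, 0.913 to 1.06), and upper and lower plate rows pointed in opposite directions, at 2.17 (A to D) and 0.632 (E to H). CFUE stood 1.45-fold above the upper intermediate (1.34 to 1.56), just inside the 1.5-fold threshold.

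Atg5 (chromosome 10, 44268358 to 44364291, plus strand) was at 40.8, 87.4, 66.8, 82.9 and 60.8 CPM in the same order. Single wells ran from 0.668 to 94.1 CPM (median 39.6) in Cd34-high BFUE, 0 to 178 (median 69.9) in Cd34-low BFUE, 7.52 to 102 (median 64.5) in the lower intermediate, 13.1 to 163 (median 77.2) in the upper intermediate and 1.06 to 173 (median 52.3) in CFUE. The highest and lowest summed levels, in Cd34-low and Cd34-high wells, lay inside the same sort gate. A single well held 25.3% of the Cd34-low reads. By the mean of per-well CPM the upper intermediate was highest, at 82.6 against 81.8 in Cd34-low BFUE. From Cd34-low BFUE the level was 1.44-fold lower in CFUE (1.36 to 1.53), within the threshold, with 17 of 23 CFUE wells below the Cd34-low median. The lowest CFUE well was again D10.

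Of the ATG8 genes, Map1lc3b encodes LC3B, the most used marker of autophagosomes, and Gabarapl1 and Gabarapl2 encode members of the GABARAP branch. Map1lc3b (chromosome 8, 121590361 to 121598760, plus strand) was at 188 CPM in Cd34-high BFUE, 126 in Cd34-low BFUE, 113 in the lower intermediate, 124 in the upper intermediate and 133 in CFUE. Its wells ran from 112 to 315 CPM (median 169), 18.4 to 184 (median 131), 33.1 to 194 (median 109), 60.1 to 208 (median 123) and 58.5 to 256 (median 123) in that order. Among Cd34-low BFUE and the 3 later gates the summed levels lay within 113 to 133 CPM, and Cd34-high wells stood above them with overlapping ranges.

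Gabarapl1 (chromosome 6, 129533160 to 129542346, plus strand) was at 141 CPM in Cd34-high BFUE, 85.7 in Cd34-low BFUE, 85.1 in the lower intermediate, 85.9 in the upper intermediate and 71.3 in CFUE. Wells ran from 26.1 to 276 CPM (median 128), 37.4 to 177 (median 69.8), 38.9 to 178 (median 84.3), 21.8 to 174 (median 77.2) and 0 to 162 (median 55.7). CFUE held the lowest wells, 6 of 23 lying below every Cd34-low BFUE well, and the 1 well at 0 was D10. The ratio of CFUE to Cd34-low BFUE was 0.832 (0.786 to 0.881).

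Gabarapl2 (chromosome 8, 111940703 to 111953612, plus strand) was ordered differently from Gabarapl1 in CFUE. It stood at 43.6 CPM in Cd34-high BFUE, 29.6 in Cd34-low BFUE, 31.8 in the lower intermediate, 35.4 in the upper intermediate and 47.7 in CFUE. Wells ran from 16.7 to 96.1 CPM (median 32.5), 9.97 to 51.2 (median 23.4), 17.9 to 57.8 (median 28.7), 8.59 to 67.04 (median 36.1) and 14.9 to 114 (median 46.3). In CFUE 22 of 23 wells lay above the Cd34-low median and 8 above every Cd34-low well. CFUE was 1.61-fold above Cd34-low BFUE (1.48 to 1.76), with 1.63 in the upper plate rows, 1.58 in the lower ones and 1.55 without well D10, the highest CFUE well for this gene. In wells with 1500000 or more reads the ratio was lower, at 1.36.

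Sqstm1 (chromosome 11, 50199366 to 50210827, minus strand) encodes p62, which links ubiquitin-tagged cargo to LC3B and gathers in bodies that autophagy clears. It was at 443 CPM in Cd34-high BFUE, 209 in Cd34-low BFUE, 246 in the lower intermediate, 216 in the upper intermediate and 222 in CFUE. Wells ran from 172 to 735 CPM (median 469) in Cd34-high BFUE, 70.8 to 377 (median 214) in Cd34-low BFUE, 78.02 to 706 (median 201) in the lower intermediate, 137 to 365 (median 207) in the upper intermediate and 3.17 to 454 (median 231) in CFUE. Cd34-high wells were the highest as a group, 4 of the 8 exceeding every Cd34-low well, and the ranges overlapped. The lowest of all 91 wells was D10, and the next lowest CFUE well held 87.04 CPM.

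Levels of different genes were compared per length, as CPM per kb of the principal transcript. On this scale Sqstm1 was the highest member in every group (103 in Cd34-low BFUE, 109 in CFUE and 217 in Cd34-high BFUE) and Ulk1 the lowest (1.43, 1.30 and 0.112). Bnip3l ranked 4 among the 9 in Cd34-low BFUE at 38.7 and 2 in CFUE at 60.2. Map1lc3b, at 49.7 and 52.6, and Gabarapl1, at 47.1 and 39.2, ranked 2 and 3 in Cd34-low BFUE and 3 and 4 in CFUE. Bnip3l stood above Bnip3 in each group, at 60.2 against 18.2 in CFUE, and Gabarapl1 above Gabarapl2, at 39.2 against 28.4. Atg5 stood above Atg7 in every group, at 37.2 against 11.9 in Cd34-low BFUE and 25.8 against 11.7 in CFUE.

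**Figure D2:**
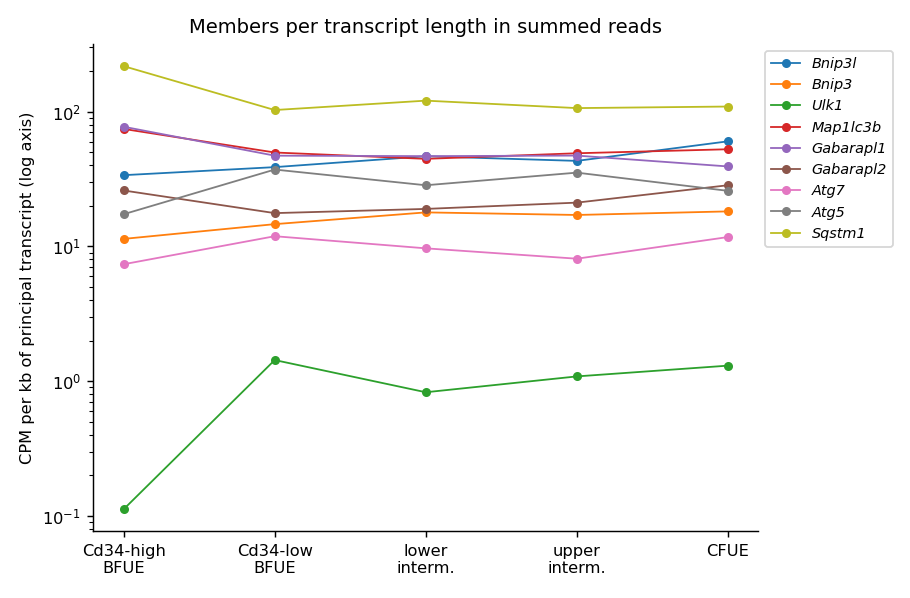
CPM per kb of principal transcript (vertical log axis) of the 9 genes in the summed reads of each group, 1 line per gene. Sqstm1 lies on top in all 5 groups, Bnip3l moves from 38.7 in Cd34-low BFUE to 60.2 in CFUE, and Ulk1 lies lowest with values of 1.43 or less.

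Counted together, 8 of the 9 members were measured (10 CPM or more in either group) in every comparison, and Ulk1 was not. Between CFUE and Cd34-low BFUE, 2 of the 8 (Bnip3l and Gabarapl2) were 1.5-fold or more higher in CFUE, where 13.6% of the 8246 genes measured were. None of the 8 was lower by that much over all kept wells, against 24.9% of genes, but Atg5 was 1.55-fold lower in the wells of 1500000 reads or more and Atg7 1.58-fold lower in the lower plate rows. The median log2 ratio of the 8 was 0.08, and that of all genes -0.11. With all 23 BFUE wells as the base, Bnip3l alone passed, at 1.62-fold (1.56 to 1.68), against 13.7% of genes higher and 29.6% lower. These comparisons share the CFUE wells and the Cd34-low wells. Of 9 hepatoblast markers, genes of the liver's own epithelial cells, all had reads in Cd34-low BFUE (summed 13.5 to 1665 CPM per well) and in CFUE (3.34 to 889.7), and their part in the members' values was not tested.

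From gate to gate no member passed 1.5-fold over all kept wells. The backgrounds were 9.54% of genes higher and 17.7% lower for the lower intermediate against Cd34-low BFUE, 7.34% and 9.27% for the upper against the lower intermediate, and 7.98% and 9.7% for CFUE against the upper intermediate. The ratios of the 8 measured members ran from 0.765 (Atg5) to 1.22 (Bnip3) in the first of these steps, from 0.838 (Atg7) to 1.24 (Atg5) in the next, and from 0.733 (Atg5) to 1.45 (Atg7) in the last. Apart from Atg5 in the next step (1.24 in the upper and 1.23 in the lower rows), these end values differed between plate rows. Atg5 was at 0.488 in the upper and 1.33 in the lower rows in the first step and at 1.13 and 0.459 in the last. Bnip3 was at 2.16 and 0.788 in the first step. Atg7 was at 0.582 and 1.10 in the next step and at 2.01 and 1.14 in the last. Across the 10 pairs of groups and 9 members, the per-well ranges were apart in 0 of 90 cases.

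Within the BFUE gate more members passed the threshold than from gate to gate, and so did more of all genes. Cd34-high against Cd34-low wells gave 2 of 8 measured members higher by 1.5-fold or more, against 30.4% of 9224 genes, and 2 lower, against 25.4%. Sqstm1 was 2.12-fold higher in Cd34-high wells (2.04 to 2.20), with 7 of 8 wells above the Cd34-low median, and Gabarapl1 was 1.64-fold higher (1.54 to 1.75), with 6 of 8. Atg5 was 2.14-fold lower (1.94 to 2.37), with 7 of 8 wells below the Cd34-low median, and Atg7 was 1.61-fold lower (1.43 to 1.83), with 5 of 8. Map1lc3b, at 1.496-fold higher (1.42 to 1.58) with 7 of 8 wells above the median, lay at the edge of the threshold, and Gabarapl2 was at 1.47 (1.32 to 1.65). Over the alternative settings Map1lc3b ran from 1.07 to 1.67 and Gabarapl2 from 0.754 to 2.31. Bnip3l was at 0.872 (0.817 to 0.930) and Bnip3 at 0.777 (0.668 to 0.902). Bnip3 was at 1.51 in the upper and 0.451 in the lower rows, and at 0.417 without the well with most reads in each group. Gabarapl2 was at 2.31 in the upper and 0.801 in the lower rows. The share of members past the threshold in this comparison is close to that of all genes.

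The sizes moved with the plate rows and with single wells. Sqstm1 was 2.84-fold higher in the upper rows and 1.66-fold in the lower ones, Gabarapl1 1.45-fold and 1.82-fold, and Map1lc3b 1.60-fold and 1.40-fold. Atg5 was 3.17-fold lower in the upper rows and 1.30-fold in the lower ones, and Atg7 1.12-fold and 1.92-fold. Gabarapl2 was higher in the upper rows, at 2.31, and lower in the lower rows, at 0.801. Without the well with most reads in each group, Gabarapl1 was at 1.496-fold, just below the threshold.

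Cd34-high wells also carried markers of other cells. The 9 stem and multipotent progenitor markers summed to 2223 to 3735 CPM there and to 4.69 to 473 in Cd34-low BFUE. This list includes Cd34, the gene that divided the wells, so part of the gap was set by the split. In summed reads Cd34 was at 1404 against 1.56 CPM, and of the other markers Flt3 was at 688 against 1.03 and Cd48 at 318 against 75.1. The 9 neutrophil and monocyte markers summed to 350.0 to 7029 against 1.32 to 184, with Elane and Ly6c2 at 0 in both, and the 8 lymphoid markers to 1.73 to 1001 against 0 to 55.4, with Dntt and Cd3e at 0 in both. The 8 macrophage markers summed to 0 to 42.6 against 0 to 60.2, with C1qa, C1qb, Vcam1 and Mrc1 at 0 in both. The 8 endothelial and stromal markers summed to 10.4 to 495 against 0 to 126, with Cdh5, Col1a1, Col3a1 and Pdgfra at 0 in both. The 6 mast cell and basophil markers summed to 0 to 243 against 0 to 0.669, with all but 1 at 0 in both, and the 7 megakaryocyte markers to 5.80 to 735 against 0.620 to 1442, with Pf4 and Ppbp at 0 in both. The part of these cell identities in the values of Sqstm1, Gabarapl1, Atg5 and Atg7 was not tested.

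**Figure D3:**
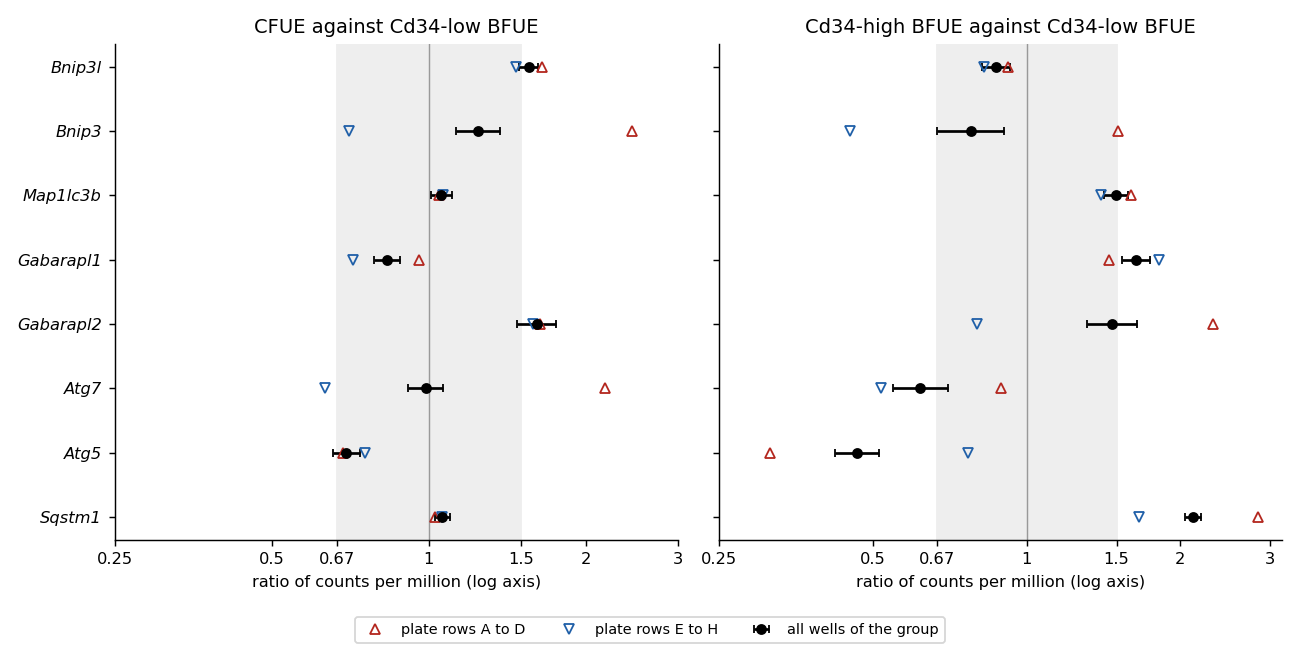
Ratio of CPM (horizontal log axis) of 8 members in CFUE against Cd34-low BFUE (left) and in Cd34-high against Cd34-low BFUE (right), over all wells (black, with exact 95% counting intervals) and in plate rows A to D and E to H apart (triangles), with ratios inside 1.5-fold shaded. Left, Gabarapl2 lies at 1.63 in the upper and 1.58 in the lower rows and Bnip3l at 1.65 and, inside the shading, 1.47, while Bnip3 and Atg7 fall on opposite sides of 1, and right, Sqstm1 lies at 2.12 and Atg5 at 0.466.

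Correlations between members were followed from cell to cell. Over the 91 wells, with log2(CPM + 10) centred on the mean of each of the 5 groups, the 36 pairs had Pearson correlations from -0.23 to 0.33 with a median of 0.05. Bnip3l with Sqstm1 was at 0.33 (Spearman 0.21), and at 0.18 without the CFUE well D10. Bnip3l with Atg7 was at 0.27 (Spearman 0.28), and at 0.22 without that well. Gabarapl1 with Gabarapl2 was at -0.23 (Spearman -0.18), and at -0.14 without it. Which pair stood at either end thus depended on 1 well and on the measure. The wells share 1 plate, and these values describe them with no test. No background over other gene pairs is given beside them, so they cannot be called low for genes at these levels. Members with many wells at 0 reads, such as Ulk1 in 13 of 23 CFUE wells, limit them further.

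**Figure D4:**
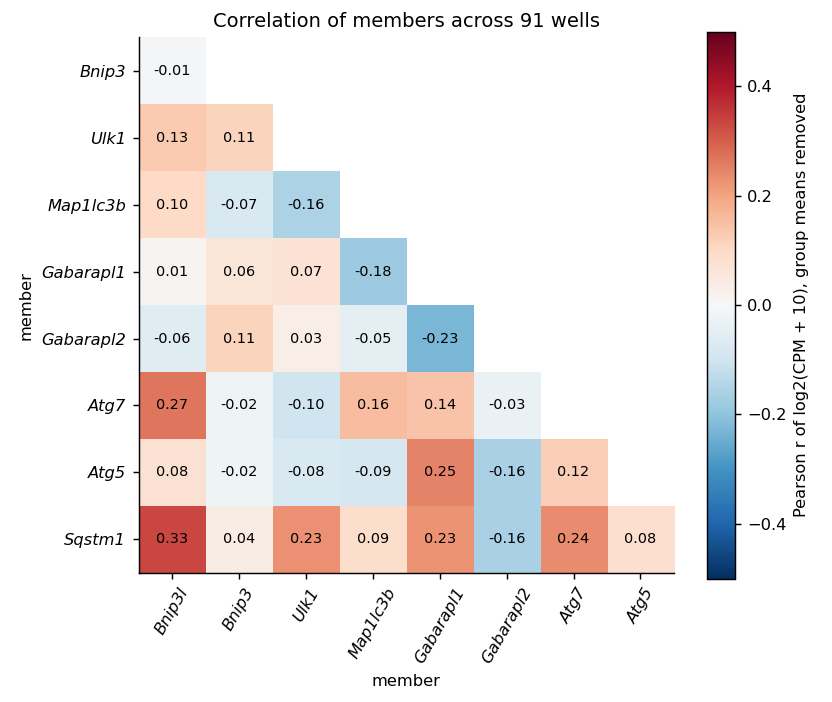
Pearson correlation of log2(CPM + 10) between members (rows and columns) across 91 wells after removal of group means, with the value in each cell and a colour scale from -0.5 to 0.5. Values run from -0.23 (Gabarapl1 with Gabarapl2) to 0.33 (Bnip3l with Sqstm1, 0.18 without the CFUE well D10).

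Within the CFUE gate, wells differed in how far late erythroblast genes were present. Bnip3l had a Pearson correlation of 0.53 with the mean log level of the 8 late erythroblast markers over 23 CFUE wells (Spearman 0.57), and 0.57 over 22 wells without D10. Map1lc3b was at 0.59, and at 0.58 without D10. Atg7 was at 0.48 and Gabarapl2 at 0.29, while Gabarapl1, at -0.01, Bnip3, at -0.15, and Atg5, at -0.21, were near 0 or negative. These values include D10, the lowest CFUE well for Gabarapl1 (0 CPM) and Atg5 (1.06) and the highest for Bnip3 (111) and Gabarapl2 (114). It was also among the wells at 0 for Atg7. Their values without D10, and any for Sqstm1 and Ulk1, are not given here. The upper intermediate gave 0.26 for Bnip3l and 0.28 for Map1lc3b over 24 wells. Read depth had a correlation of 0.41 with Bnip3l over the 23 CFUE wells, and of -0.07 without D10, the shallowest well.

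The genes most like Bnip3l across all 91 wells, of 4815 compared by the Pearson correlation of log2(CPM + 10), were Bsg (0.57), Gmpr (0.53), Car2 (0.52), Hmgb3 (0.51) and Grina (0.51). Each of these 5 was also lower in Cd34-low BFUE than in CFUE, Car2, a carbonic anhydrase of red cells, at 1017 against 3260 CPM and Bsg at 506 against 889 CPM. After centring on the group mean the closest were Paics (0.56), Tecr (0.50), Bsg (0.50), Actn4 (0.49) and Slc48a1 (0.48), of which Slc48a1 encodes a heme transporter. For Sqstm1 the closest were Gapdh (0.58), Akr1a1 (0.57), Ppp1ca (0.57), Eif4h (0.54) and Eef1a1 (0.53) over all wells. Centred, they were Psmd2 (0.56), Rnps1 (0.56), Atp5b (0.56), Mcm7 (0.56) and Hdac1 (0.54). Map1lc3b had no gene above 0.40 (Dnm2, over all wells), Gabarapl1 was closest to Wdr77 (0.53) and, centred, to Thap11 (0.56), and Atg5 to Adprhl2 (0.51) and, centred, to Txn2 (0.47). All of these correlations include the CFUE well D10, the lowest of the 91 wells for Sqstm1 and Gabarapl1. Values without D10 are not given here, so the part of that well in them is not known.

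The rest of the pathway was followed in 110 other genes of autophagy and lysosomes. Between CFUE and Cd34-low BFUE, 99 were measured, of which 12 were 1.5-fold or more higher in CFUE (against 13.6% of all genes) and 22 lower (against 24.9%), with a median log2 ratio of -0.12. Cargo receptors had 1 of 13 higher and 4 lower, lysosome genes 3 of 22 higher and 5 lower, genes of membrane supply 3 of 10 higher and 2 lower, and genes of fusion with lysosomes 0 of 13 higher and 3 lower. The conjugation list had 2 of 8 higher and 1 lower. The Pink1 and Parkin branch, the other main route of mitophagy, had 0 of 6 measured genes higher and 1 lower. Gabarap, the close relative of Gabarapl1 (75.5% identical over 347 coding bases), was at 131 CPM in Cd34-low BFUE and 151 in CFUE, and Map1lc3a, the relative of Map1lc3b, was below 10 CPM in all groups.

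Single pathway genes are named by a rule of a 2-fold or larger difference with the same direction in upper and lower plate rows. The share of all genes that meet this rule was not computed, so the count is not read as high or low for the pathway. In CFUE against Cd34-low BFUE, 14 of the pathway genes met it. Of these, Optn, which encodes optineurin, a receptor that links ubiquitin on mitochondria to ATG8 proteins, was at 178 CPM in Cd34-low BFUE, 75.8 in the lower intermediate, 49.4 in the upper intermediate and 48.6 in CFUE, and at 1.17 CPM in Cd34-high BFUE. It was thus 3.66-fold lower in CFUE (3.47 to 3.87), while the receptor Bnip3l was higher. Ctsb, the lysosomal protease cathepsin B, was 2.96-fold higher in CFUE (2.87 to 3.05), at 207, 314, 395 and 611 CPM from Cd34-low BFUE to CFUE. Wipi1 and Wipi2, which bind the lipid made at the forming autophagosome, were 2.16-fold (1.93 to 2.41) and 2.02-fold (1.93 to 2.11) higher.

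Also higher were Zkscan3, a repressor of autophagy genes, at 24.0 and 61.2 CPM, and Atg4a, a protease that trims ATG8 proteins, at 9.84 and 20.4 CPM. Lower in CFUE were the lysosomal genes Neu1 (20.9 and 5.58 CPM), Npc1 (18.8 and 5.61 CPM) and Hexa (92.03 and 29.9 CPM). Wdr45b, a relative of the Wipi genes, stood at 88.98 and 30.9 CPM. Uvrag, a partner of beclin 1, was at 60.1 and 28.3 CPM, but 55.5% of its Cd34-low reads came from 1 well, and without the well with most reads in each group it was at 31.2 and 26.8 CPM, 1.16-fold lower in CFUE. Each of the other 13 genes moved by less than 1.5 times without those wells. Flcn, which acts in nutrient signalling at the lysosome, was at 102 and 45.9 CPM, and the large adaptors Wdfy3 and Epg5 at 22.1 and 7.81 and at 10.8 and 3.89 CPM. The low genes Neu1, Npc1, Wdfy3 and Epg5 rest on few reads per well.

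Between Cd34-high and Cd34-low BFUE, 31 of 101 measured pathway genes were 1.5-fold or more higher (30.4% of all genes) and 21 lower (25.4%). The regulators had 9 of 17 higher and 1 lower and the lysosome genes 8 of 22 higher and 4 lower, while membrane supply had 0 of 10 higher and 4 lower. Pink1, the kinase that marks damaged mitochondria, named here after its values were seen, was at 144 CPM in Cd34-high and 38.8 in Cd34-low BFUE and at 20.99 to 27.3 CPM in the 3 later gates. As with the members, the counts of the whole list stand close to the background.

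**Figure D5:**
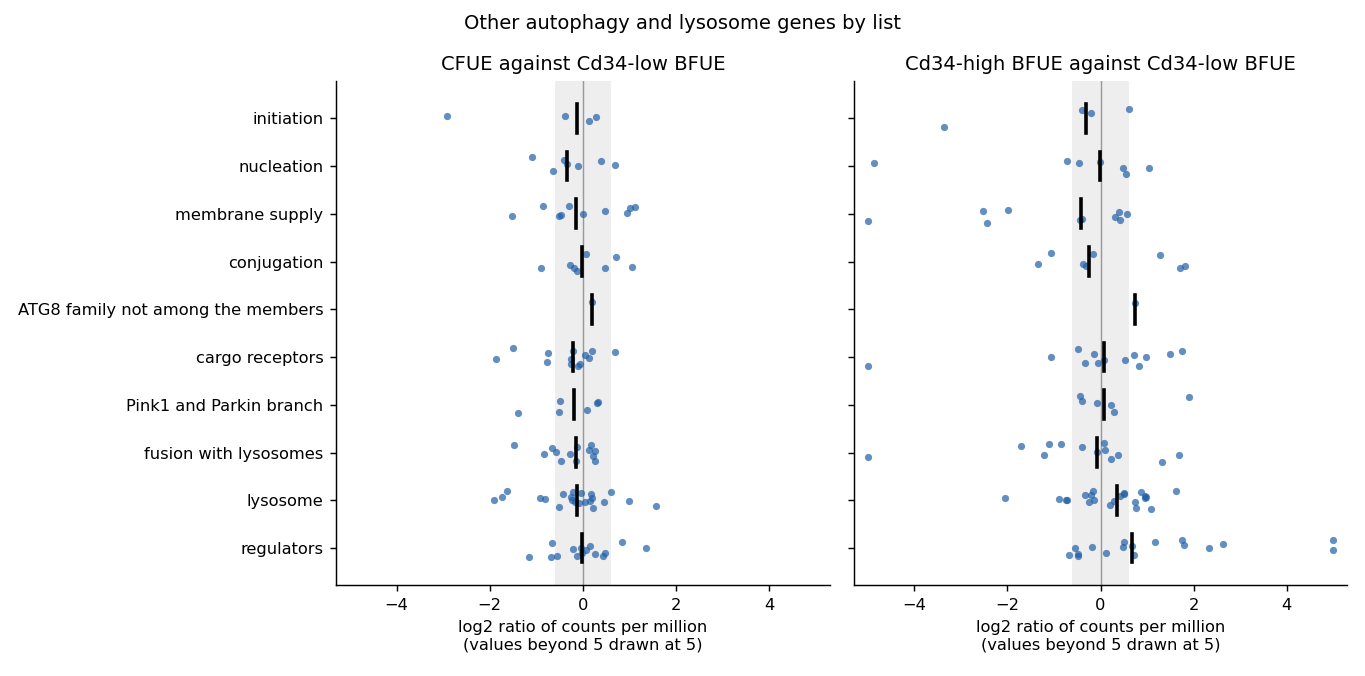
Log2 ratio of CPM (horizontal axis) of measured autophagy and lysosome genes outside the 9 members, by list (rows), in CFUE against Cd34-low BFUE (left) and Cd34-high against Cd34-low BFUE (right), with list medians as black bars and ratios inside 1.5-fold shaded. All list medians lie inside the shading on the left. On the right the regulators have a median of 0.68, and the ATG8 family list, with 1 measured gene, lies at 0.74.

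Near-identical copies could take reads from some members. Sequences at 95% or more identity over at least 100 coding bases were found for Bnip3l (Bnip3l-ps, 99.4% identical, with reads equal to 2.46% of those of Bnip3l), for Map1lc3b (4 copies, 3.04%), for Gabarapl2 (3 copies, 3.84%) and for Bnip3 (5 copies, 1.92%). None was found for Ulk1, Gabarapl1, Atg7, Atg5 and Sqstm1. How the counting treated reads shared between copies is not given in the sources used here. Adding the copies' reads to their member left the number of members past 1.5-fold as it was in all 6 comparisons.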

How the data were processed

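Per the labels' protocols, single fetal liver cells were sorted into plate wells and sequenced by Smart-seq2. Per the submitters' processing notes, the authors used STAR 2.4 for alignment, the build GRCm38 and featureCounts for counting. The deposited table gives whole, unnormalised counts for each gene. Not given in the sources used here are the featureCounts version, its strand setting, the annotation and how shared reads were treated. Because its header has 1 more empty cell than the data lines, names were matched to columns in order.

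Wells were kept at 50000 reads and 1000 genes or above, which left out 5 wells of 10596 to 16644 reads. No reads (0%) fell in rows without a gene. Doublets were not called, since each well was sorted as 1 cell. Counts were summed per group and given as CPM with exact Poisson intervals, and ratios with exact conditional binomial (Clopper-Pearson) intervals at 95%. With 1 sample per gate no test was made. Genes reaching 10 CPM in either group were called measured, and higher or lower at 1.5-fold. A gene with 0 reads stood at 3 counts over the group, which is 0.0786 to 0.251 CPM. One marker of the erythroid lists is not reported here and was left out of their sums. The members and gene lists were chosen with earlier results of these data known. All 9 members are named. The most alike genes are the 5 with the highest correlation with Bnip3l or with a member at 50 CPM or more in every gate, without predicted genes and pseudogenes. Other pathway genes are named at 2-fold or more between CFUE and Cd34-low BFUE with 1 direction in upper and lower plate rows. Coordinates (1-based), transcripts and copies are from GENCODE M21, which held 99.7% of the identifiers, and promoters from RefSeq (GRCm38.p6), where 8 of 9 members matched, all but Bnip3l. Alternatives were other summaries, scalings (TMM of edgeR 4.0.16, size factors of DESeq2 1.42.0, in R 4.3.3), filters, upper (A to D) or lower (E to H) plate rows, folds and counts thinned to 500000 reads per well. Ratios and intervals were tried on simulated Poisson sums with known folds, of which 90.9 to 95.5% lay within the interval. Those sums hold counting error alone, so the trial cannot check the spread between wells. Computations ran in Python 3.11.15 with scipy 1.17.1, numpy 2.4.6, matplotlib 3.10.9 and pandas 2.3.3.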

Additional observations from a re-analysis of the deposited data

How the results depend on the processing

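No paired analysis was possible because no test was fitted, and well numbers shared by the gates only name plate positions. The number of members 1.5-fold or more apart between CFUE and BFUE was 1, and 2 by the mean of per-well CPM, by TMM, by DESeq2 size factors and in thinned counts, 3 by the median of per-well CPM, 4 in plate rows A to D, 3 in rows E to H and 0 at 2-fold. Bnip3l was among them in every setting but the 2-fold one. For CFUE against Cd34-low BFUE the number was 2, and 1 by the mean of per-well CPM and with a filter of 50 CPM, 4 in rows A to D and 0 at 2-fold. The 2 were not the same members in every setting: in wells of 1500000 reads or more they were Bnip3l and, 1.55-fold lower, Atg5, with Gabarapl2 at 1.36, and in rows E to H Gabarapl2 and, 1.58-fold lower, Atg7, with Bnip3l at 1.47. From gate to gate it was 0. The lower intermediate against Cd34-low BFUE gave 3 in rows A to D, 2 in rows E to H and 1 with no filter on low genes. The upper against the lower intermediate gave 1 in rows A to D. CFUE against the upper intermediate gave 1 by the median of per-well CPM, 2 in rows A to D, 2 in rows E to H and 1 without the well with most reads. For Cd34-high against Cd34-low BFUE it was 4, 2 at 2-fold and 3 to 6 in the other settings, with 6 by DESeq2 size factors, where Map1lc3b (1.56) and Gabarapl2 (1.54) passed too. Of the other pathway genes, 34 were apart between CFUE and Cd34-low BFUE, 18 with the filter of 50 CPM and 16 at 2-fold, and 52 between Cd34-high and Cd34-low BFUE, 33 at 2-fold. The cause of these changes was not tested, apart from the stricter filter and fold, which count fewer genes by construction.

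The 7 ratios of members past 1.5-fold kept their direction in every alternative run. Over the alternatives, Bnip3l ran from 1.46 to 1.70 and Gabarapl2 from 1.36 to 1.98 in CFUE against Cd34-low BFUE. In Cd34-high against Cd34-low BFUE, Sqstm1 ran from 1.59 to 2.84 and Gabarapl1 from 1.45 to 2.20, and Atg5 was 1.30 to 3.17-fold and Atg7 1.12 to 10.1-fold lower, the last by the median of per-well CPM. TMM moved the median log2 ratio of all genes in CFUE against Cd34-low BFUE from -0.11 to 0.01, and Bnip3l with it to 1.68-fold and Gabarapl2 to 1.74-fold. The ratio of Atg7 in CFUE against Cd34-low BFUE changed side in 5 of 13 alternatives. It was 1.06 under TMM and DESeq2 size factors and 2.17 in rows A to D. Without the well with most reads in each group it was 1.09, and without D10 1.01. The median correlation of the members was 0.05, and 0.06 with a pseudocount of 1, 0.00 by Spearman and 0.04 in thinned counts. Leaving out well D10, adding the near-identical copies and, for the other pathway genes named, leaving out the top wells were chosen after seeing the data. Few Cd34-high wells lie in each set of plate rows, which limits the precision there.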
